A study of Mus musculus with 12 samples.

Results

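Lipogenesis, the making of fatty acids from acetyl-CoA, runs through a small set of enzymes whose genes are widely described as targets of the upstream stimulatory factors USF-1 and USF-2. The genes followed here were Fasn, Acaca, Acacb, Acly, Scd1, Scd2, Me1, Elovl6, Srebf1 and Lipe, taken by their symbol from the deposited expression table, where all 10 were found among 55487 genes. They are called lipogenic genes or members here, although Lipe encodes a lipase that breaks down stored lipid and Srebf1 a transcription factor. They were chosen for their known link to lipid metabolism and USF, but with earlier results of these data known. The question was whether their transcripts depend on USF-1 in the hippocampus.

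Hippocampal RNA of 6 WT mice and 6 mice labelled as knock-outs of USF-1 (USF-1 KO) was sequenced, with 1 library per mouse. All mice were of the C57Bl/6JRccHsd strain and 3 to 4 months old. According to the study's methods they came from heterozygous parents and were housed singly from before the behavioural experiments. The sources used here do not give which part of Usf1 is altered. By the labels the WT group held 4 females with 2 males and the USF-1 KO group 2 females with 4 males. The legend of the figure that shows these data gives equal numbers of both sexes, without naming the panels this covers, and the labels were used. WT mice had 23369928 to 32091173 reads on genes (median 26767182) and USF-1 KO mice 21679622 to 30859179 (median 24031310). Mice are called WT 1 to WT 6 and KO 1 to KO 6 in the order in which they were deposited, and the numbers are only names.

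USF-1 and USF-2 bind as dimers to the E-box, a short palindromic DNA motif. In liver and fat they are known to help switch on fatty acid synthesis in response to feeding and insulin, together with SREBP-1, the transcription factor encoded by Srebf1. In the brain, newly made fatty acids go into membranes, and oligodendrocytes, which wrap axons in lipid-rich myelin, are known as strong users of the pathway.

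The promoter sequences are shown because USF-1 is defined by the motif it binds. RefSeq promoter windows on GRCm38.p6, reaching from 250 bases before to 50 bases after a transcript start, were at hand for 8 of the 10 genes and numbered 12, with none for Scd1 and Scd2. The Acaca window began at 84195188 and the Acacb window at 114165268, inside genes annotated from 84129672 and 114146535. Both windows of Lipe also lay inside the annotated gene. The sequence before the outermost start of these genes was therefore not searched. The core E-box CACGTG was looked for, as was the looser form CANNTG, which contains it, and both read the same on either strand in this pattern. CACGTG was present in 1 of the 12 windows and in 7.15% of all 32851 windows of the table, whereas CANNTG was present in 9 of the 12 and in 72.3% of all. The window with CACGTG was 1 of the 2 of Lipe, and the other window of Lipe held a CATGTG only. The 250 bases upstream of a transcript start are given 5′ to 3′ on the strand of the gene for Lipe (chr7:25395988-25396237, minus strand), for Fasn, the central enzyme (chr11:120824548-120824797, minus strand), and for the first window of Srebf1 (chr11:60222582-60222831, minus strand), and capitals mark each CANNTG.
Lipe: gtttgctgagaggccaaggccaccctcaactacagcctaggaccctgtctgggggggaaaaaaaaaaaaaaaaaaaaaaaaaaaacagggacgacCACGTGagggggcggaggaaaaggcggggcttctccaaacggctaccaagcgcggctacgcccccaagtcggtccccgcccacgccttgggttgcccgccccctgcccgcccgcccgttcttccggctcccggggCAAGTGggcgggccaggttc
Fasn: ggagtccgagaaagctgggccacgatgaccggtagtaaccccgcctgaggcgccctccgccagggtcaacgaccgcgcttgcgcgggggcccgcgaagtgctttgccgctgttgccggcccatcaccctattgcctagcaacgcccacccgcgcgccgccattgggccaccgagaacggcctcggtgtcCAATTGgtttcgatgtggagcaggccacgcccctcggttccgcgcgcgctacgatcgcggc
Srebf1: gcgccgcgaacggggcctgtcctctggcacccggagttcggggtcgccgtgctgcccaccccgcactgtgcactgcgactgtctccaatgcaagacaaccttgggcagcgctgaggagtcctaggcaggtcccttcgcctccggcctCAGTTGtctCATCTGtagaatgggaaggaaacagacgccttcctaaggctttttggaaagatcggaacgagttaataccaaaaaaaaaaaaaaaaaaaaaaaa
In Lipe the CACGTG began 155 bases upstream of the transcript start and a CAAGTG began 20 bases upstream. In Fasn a single CAATTG began 61 bases upstream, and in the first window of Srebf1 a CAGTTG and a CATCTG began 103 and 94 bases upstream. Srebf1 also had windows at other transcript starts, whose sequences are not printed. In 1 of them a CAGGTG began 1 base upstream. Another held a CATGTG that began 24 bases upstream and a CAGGTG at position 44 after the start. These matches are descriptions of letters in short windows, and binding of USF-1 was not measured.

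Usf1 itself was low in every library labelled USF-1 KO. Its normalised count, the reads on a gene divided by the size factor of the library, was 1505, 1579, 1583, 1520, 842 and 1425 in WT 1 to WT 6 and lay between 117 and 163 in the 6 USF-1 KO mice. The genotypes did not overlap, although WT 5 stood well below the other WT mice. The reason for its low value was not tested, and WT 5 was kept in the group that its label gives. On average USF-1 KO mice had 9.98% of the WT level, with a log2 fold change of -3.29 (SE 0.14, limma, adjusted p = 1.77e-08). Usf2, the partner that binds the same motif, had 1995 ± 73.9 normalised counts in WT against 2075 ± 26.7 in USF-1 KO mice (SD, n = 6 each), with a log2 fold change of 0.06 and an adjusted p of 0.468.

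None of the lipogenic genes passed the test for a difference between genotypes. With limma on log2(normalised count + 1), adjusted over 18221 genes, 0 of the 10 were called at an adjusted p under 0.05, where 0.900% of all genes tested were called (0.741% lower and 0.159% higher in USF-1 KO mice). Their adjusted p ranged from 0.207 to 0.969. At an unadjusted p under 0.05 there were 5 of 10, all with the lower mean in USF-1 KO mice, against 13.5% of all genes in either direction and 7.60% in that direction. edgeR on the recovered reads also called 0 members, with 5 at an unadjusted p under 0.05, against 0.857% and 13.8% of all genes. DESeq2 likewise called 0 members, with 5 at an unadjusted p under 0.05, against 3.54% and 14.3% of the genes to which it gave an adjusted p. The WT and USF-1 KO values overlapped in all 10 genes, and 1.50% of all genes showed no overlap (1.08% with the lower values in USF-1 KO mice).

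The log2 fold change was negative for 9 members and positive for Fasn, and 50.2% of all genes tested had a negative value. The median over the 10 was -0.12, beside -0.00065 over all genes tested, and the median size regardless of sign was 0.12, beside 0.08. These counts describe 10 genes that share a pathway and are not replicates of one another. The genes were chosen with earlier results of these data known, which bears on these counts and on those above.

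**Figure D1:**
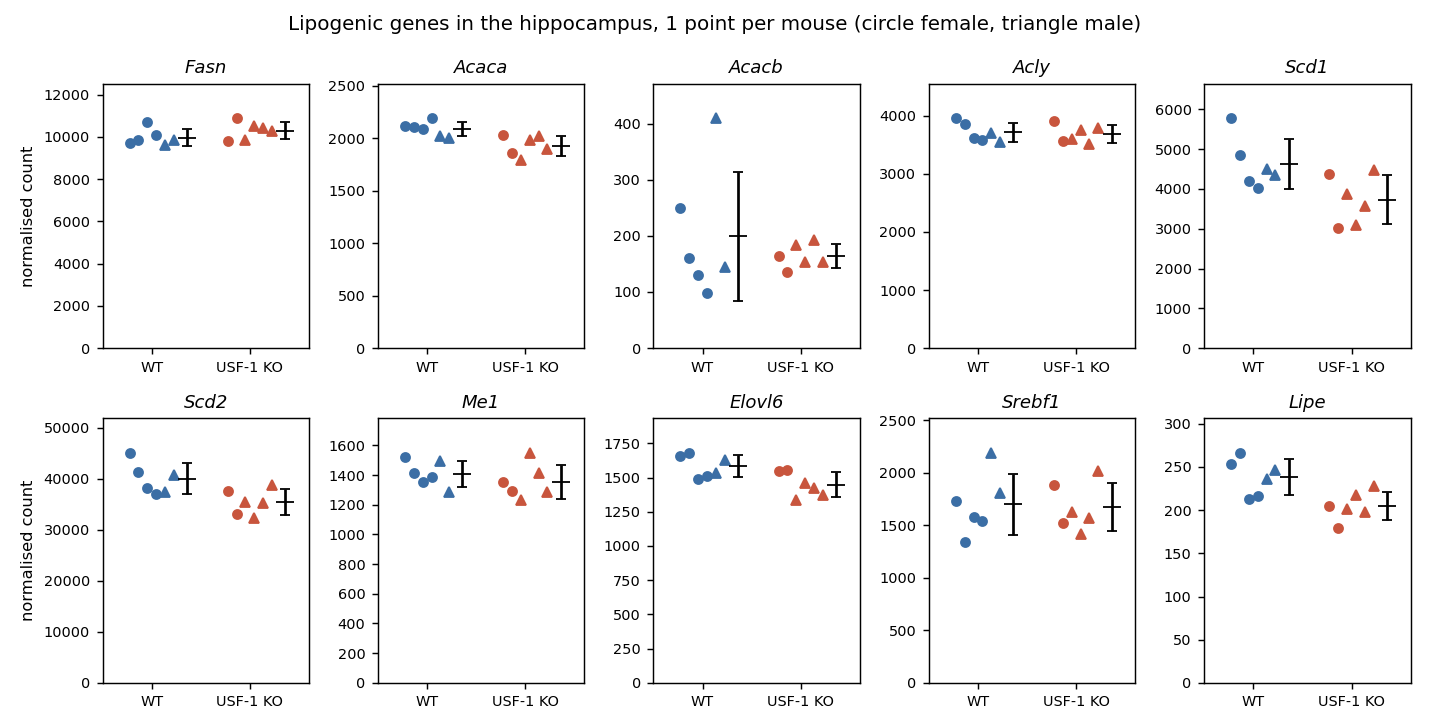
Normalised counts (vertical axes, from 0) of the 10 lipogenic genes in WT (blue) and USF-1 KO (red) hippocampi, with circles for females, triangles for males and black marks for the mean ± SD of 6 mice. The genotypes overlap in every panel, and Acacb has its highest value, 410, in WT 5.

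The genes differed far more from each other than between genotypes. Per kilobase of exon, Scd2 was the most abundant in WT mice at 7311 ± 557 normalised counts (SD, n = 6), which was 7.74 times the level of Scd1. Scd1 and Fasn followed at 945 ± 130 and 910 ± 35.2 per kilobase, and their ranges over the WT mice overlapped. Acly was next at 704 ± 30.5 per kilobase, below every WT value of Fasn.

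The middle of the order held Me1 at 366 ± 22.9, Srebf1 at 301 ± 51.7 and Elovl6 at 246 ± 12.6 normalised counts per kilobase, where Srebf1 overlapped both neighbours. Acaca stood at 122 ± 4.04 per kilobase, clear of the genes on either side of it. Lipe at 40.5 ± 3.60 and Acacb at 20.7 ± 11.9 per kilobase were lowest and overlapped. Between the highest and the lowest mean lay a factor of 354. Adipocytes and hepatocytes, the cells in which this pathway is best known, left little trace in the libraries: 5 of 6 adipocyte markers (including Adipoq, Fabp4 and Plin1) and 6 of 6 hepatocyte markers (including Alb) were under 20 normalised counts in every mouse.

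Srebf1 encodes SREBP-1, the factor that drives transcription of the enzymes. The gene lies on chromosome 11 from 60199089 to 60222581 (mm10, minus strand). WT mice had 1337 normalised counts at the lowest, 1656 at the median and 2189 at the highest, and USF-1 KO mice 1417, 1598 and 2015. Every USF-1 KO mouse fell inside the WT range, and the highest value was that of WT 5. The USF-1 KO mean was 98.5% of WT (95% confidence interval on the limma scale 84.0% to 116%, adjusted p = 0.969). The count is for the gene as a whole, and transcripts from its different starts were not told apart. A p that misses the threshold does not show that the levels were equal, and the interval gives the sizes of change that these mice allow. Srebf1 overlaps Rai1, a gene on the opposite strand with 2906 normalised counts in WT, by 109 bases, so a small part of its reads could belong there if strand was not used.

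Acly and Me1 supply the pathway with its materials, since ATP citrate lyase makes cytosolic acetyl-CoA and malic enzyme makes NADPH. Acly (chromosome 11, 100476353 to 100528000, minus strand) had 3555, 3667 and 3960 normalised counts at the lowest, median and highest in WT and 3516, 3676 and 3919 in USF-1 KO mice. The ranges were nearly the same, and the USF-1 KO mean of 3691 ± 156 (SD, n = 6) was 99.3% of WT, with an interval of 93.8% to 105% and an adjusted p of 0.944.

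Me1 (chromosome 9, 86581371 to 86695953, minus strand) had 1283, 1401 and 1519 normalised counts in WT and 1232, 1324 and 1549 in USF-1 KO mice. Both the lowest and the highest of the 12 values came from USF-1 KO mice. On average USF-1 KO mice had 96.2% of the WT level, with an interval of 88.1% to 105% and an adjusted p of 0.714. Of the 75-base stretches of Me1 exons, 16.4% also occur in Gm7049 or Gm7329, so reads from there could have been lost or split.

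Acaca and Acacb encode the acetyl-CoA carboxylases that make malonyl-CoA. The product of Acaca serves fatty acid synthesis in the cytosol, and that of Acacb, at the mitochondrial surface, restrains fatty acid oxidation. Acaca (chromosome 11, 84129672 to 84401651, plus strand) had 2001, 2093 and 2190 normalised counts at the lowest, median and highest in WT and 1793, 1937 and 2028 in USF-1 KO mice. The values of 4 USF-1 KO mice were below every WT mouse, and KO 1 and KO 5 were inside the WT range. The USF-1 KO mean was 92.5% of WT, with a log2 fold change of -0.11 (SE 0.04, 95% confidence interval 87.2% to 98.0% of WT), an unadjusted p of 0.0116, an adjusted p of 0.207 and a two-sided exact permutation p of 0.0108 for this single gene. It was the member with the lowest adjusted p, which still missed the threshold. Of its 75-base exon stretches 26.8% also occur in other annotated genes, many of them predicted ones, and reads from such stretches are uncertain.

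Acacb (chromosome 5, 114146535 to 114250761, plus strand) was the most variable member among the WT mice, with a coefficient of variation of 57.7%, though not among the USF-1 KO mice, where it was 12.8% against 16.5% for Scd1. Its normalised counts were 250, 161, 130, 98.8, 410 and 145 in WT 1 to WT 6 and lay between 136 and 192 in USF-1 KO mice. WT 5 and WT 1 were the 2 highest of all 12 mice, and the other WT mice lay at or below the middle of the USF-1 KO range. Over all mice the log2 fold change was -0.12 (SE 0.27, 95% confidence interval 61.9% to 136% of WT, adjusted p = 0.885).

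WT 1 and WT 5 were also the mice with choroid plexus transcripts. The summed normalised count of 8 choroid plexus markers was 58052 in WT 1 and 164230 in WT 5 and between 781 and 2715 in the other 10 mice, and Ttr, the transthyretin gene and the main marker of that tissue, stood at 52017 and 149554 against 139 to 1530 elsewhere. Without WT 5 the log2 fold change of Acacb was 0.12, and without both mice it was 0.30 (unadjusted p = 0.0499, adjusted p = 0.527). With the choroid plexus marker level as a covariate it was 0.16 (adjusted p = 0.731). The direction for Acacb thus rested on these mice. WT 5 was also the WT mouse with the lowest Usf1, at 842 normalised counts, and the part of this in its values was not tested. Srebf1 moved less, from -0.02 to 0.09 without both mice. In bulk tissue a larger number of cells of a type and more RNA per cell cannot be told apart.

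**Figure D2:**
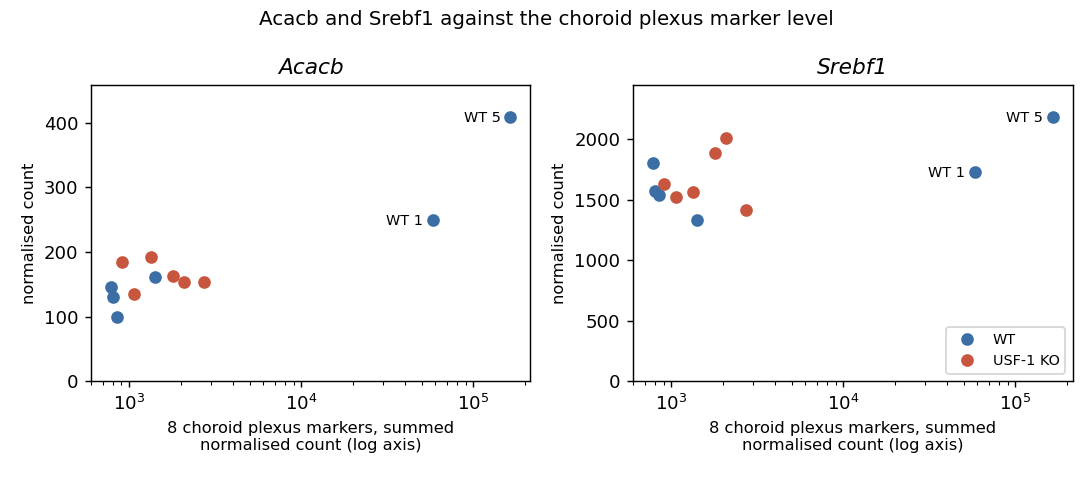
Normalised counts of Acacb and Srebf1 (vertical axes) against the summed normalised count of 8 choroid plexus markers (horizontal log axis), 1 point per mouse, WT blue and USF-1 KO red. WT 1 and WT 5 stand apart on the horizontal axis and are the highest mice for Acacb, at 250 and 410.

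Fasn encodes fatty acid synthase, which joins malonyl-CoA units into palmitate and is the best-known lipogenic target of USF. It lies on chromosome 11 from 120805846 to 120824547 on the minus strand. WT mice had 9636, 9834 and 10688 normalised counts at the lowest, median and highest, and USF-1 KO mice 9802, 10363 and 10886. It was the only member with the higher mean in USF-1 KO mice, and the ranges overlapped over most of their length. The means were 9966 ± 385 in WT and 10299 ± 415 in USF-1 KO mice (SD, n = 6), that is, 103% of WT with a 95% confidence interval of 97.6% to 109% (adjusted p = 0.637, exact permutation p = 0.182). No 75-base stretch of its exons occurs in another gene.

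Elovl6 encodes the elongase that turns palmitate into stearate and lies on chromosome 3 from 129532355 to 129638495 on the plus strand. WT mice had 1492, 1583 and 1680 normalised counts at the lowest, median and highest and USF-1 KO mice 1335, 1441 and 1553. The values of 4 USF-1 KO mice were below every WT mouse, and KO 1 and KO 2, the females, were inside the WT range. The USF-1 KO mean was 91.3% of WT, with a log2 fold change of -0.13 (SE 0.05, interval 85.1% to 98.0%), an unadjusted p of 0.0156, an adjusted p of 0.235 and an exact permutation p of 0.026.

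Scd1 and Scd2 encode stearoyl-CoA desaturases, which place the double bond in monounsaturated fatty acids, and they are neighbours on chromosome 19. Scd1 (44394455 to 44407879, minus strand) had 4021, 4433 and 5780 normalised counts at the lowest, median and highest in WT and 3019, 3731 and 4467 in USF-1 KO mice. KO 1 and KO 6 were inside the WT range and the other 4 were below it. The USF-1 KO mean was 80.8% of WT, with a log2 fold change of -0.31 (SE 0.11, 95% confidence interval 68.5% to 94.5% of WT), an unadjusted p of 0.0118 and an adjusted p of 0.208 (exact permutation p = 0.0325). This was the largest difference in size among the 10 members.

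Scd2 (44293674 to 44306864, plus strand) is the main desaturase gene of the brain. It had 37032, 39409 and 45059 normalised counts at the lowest, median and highest in WT and 32351, 35312 and 38803 in USF-1 KO mice. The same 4 USF-1 KO mice as for Scd1, KO 2 to KO 5, lay below every WT mouse. The mean in USF-1 KO mice was 88.7% of WT, with a log2 fold change of -0.17 (SE 0.06, interval 81.0% to 97.2%), an unadjusted p of 0.0137 and an adjusted p of 0.220. Of the 75-base exon stretches, 3.15% in Scd1 and 1.78% in Scd2 are shared with other genes, mainly those of the same family, so most of their reads can be told apart.

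Lipe encodes hormone-sensitive lipase, which breaks down stored lipid and so works in the opposite direction to the enzymes above. It lies on chromosome 7 from 25379527 to 25398710 on the minus strand. WT mice had 212, 241 and 266 normalised counts at the lowest, median and highest and USF-1 KO mice 179, 203 and 228. The values of 4 USF-1 KO mice lay below every WT mouse, and those of KO 4 and KO 6 overlapped with the lower WT mice. The mean in USF-1 KO mice was 85.9% of WT, with a log2 fold change of -0.22 (SE 0.08, interval 76.9% to 96.3%), an unadjusted p of 0.0124 and an adjusted p of 0.213. An antisense gene, 4732471J01Rik, covers the whole of Lipe and had 119 normalised counts in WT and 106 in USF-1 KO mice. The sources used here do not state whether the counting used strand, so the share of these reads that belongs to Lipe is uncertain.

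**Figure D3:**
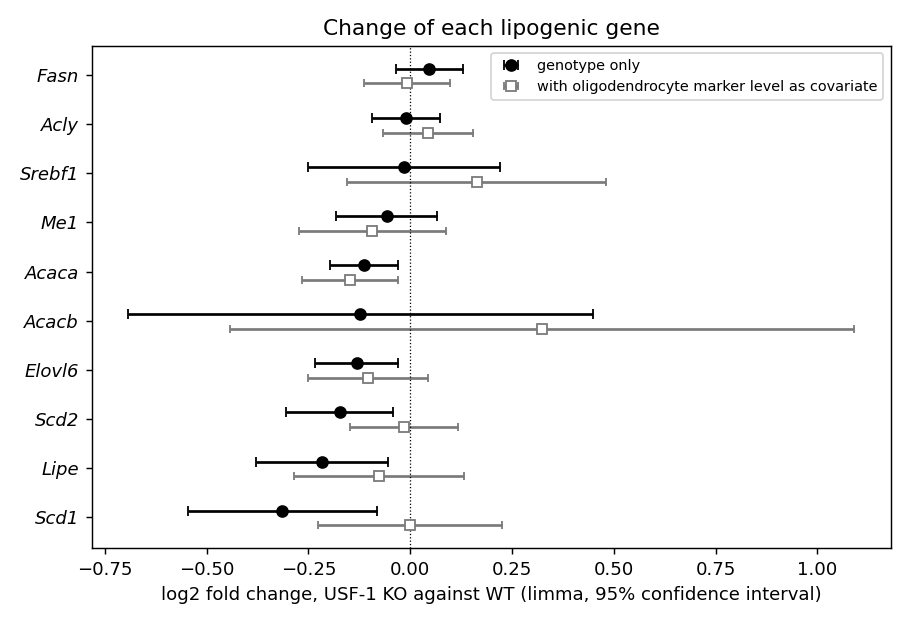
Log2 fold change of each gene in USF-1 KO against WT mice (horizontal axis) with its 95% confidence interval from limma, for genotype alone (black circles) and with the summed oligodendrocyte marker level as a covariate (grey squares). The intervals for genotype alone leave out 0 for Acaca, Elovl6, Scd2, Lipe and Scd1 before adjustment, and with the covariate Scd1 stands at -0.00 and Scd2 at -0.01.

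Oligodendrocyte transcripts moved together with some of these genes. All 12 oligodendrocyte markers, among them the myelin genes Mbp and Mog, had a lower mean in USF-1 KO mice, 12 of 12 at an unadjusted p under 0.05 and 1, Ugt8a, at an adjusted p of 0.0167, and their median log2 fold change was -0.70. Of all genes tested 50.2% had a negative value, 7.60% were lower at that unadjusted p and 0.741% were called lower. Their summed normalised count was 91417 in WT 4 and 153588 to 198564 in the other WT mice (median of all 6, 164019), and 78819 to 120122 in USF-1 KO mice (median 103389). WT 4 therefore lay within the USF-1 KO range, while every USF-1 KO mouse lay below the other 5 WT mice. WT 4 was also the lowest WT mouse for Scd1 and Scd2.

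Across the 12 mice, Scd2 rose with the oligodendrocyte marker level, with a Pearson r of 0.897 (permutation test with 100000 resamples, adjusted p = 0.0005 over 10 relations, p = 5e-05 before adjustment) and a Spearman rho of 0.916 (adjusted p = 0.0006, p = 6e-05 before adjustment). Leaving out WT 1 and WT 6, farthest from the median marker level, r was 0.857. Within the 6 WT mice r was 0.735 (exact permutation p = 0.0944) and within the 6 USF-1 KO mice 0.950 (exact permutation p = 0.0139). The relation thus kept its sign inside each genotype, though it passed 0.05 only among the USF-1 KO mice.

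For Scd1 the Pearson r was 0.867 (permutation adjusted p = 0.00055, p = 0.00011 before adjustment) and rho 0.874 (permutation adjusted p = 0.00215, p = 0.00043 before adjustment). Without WT 1 and WT 6 it was 0.878, within WT mice 0.665 (exact permutation p = 0.178) and within USF-1 KO mice 0.993 (exact permutation p = 0.00139, the smallest the 6 mice allow). Lipe followed with r = 0.803 (permutation adjusted p = 0.00603, p = 0.00181 before adjustment) and rho = 0.783 (permutation adjusted p = 0.0136), 0.719 without WT 1 and WT 6, 0.689 within WT mice (exact permutation p = 0.0972) and 0.496 within USF-1 KO mice (exact permutation p = 0.331).

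For Fasn the sign was negative. Its r was -0.628 (permutation adjusted p = 0.0807, p = 0.0323 before adjustment) and its rho -0.685 (permutation adjusted p = 0.0412), with -0.531 without WT 1 and WT 6, -0.329 within WT mice (exact permutation p = 0.45) and -0.825 within USF-1 KO mice (exact permutation p = 0.0569). For the other 6 members the adjusted p of r lay between 0.113 and 0.779. Among them Srebf1 had r = 0.891 within USF-1 KO mice (exact permutation p = 0.0264) and 0.198 within WT mice (exact permutation p = 0.65). Elovl6 had opposite signs in the genotypes, with 0.668 within WT mice (exact permutation p = 0.0958) and -0.417 within USF-1 KO mice (exact permutation p = 0.365).

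With the oligodendrocyte marker level as a covariate, the log2 fold change of Scd1 was -0.00 (95% confidence interval -0.23 to 0.23) and that of Scd2 -0.01 (-0.15 to 0.12). Lipe stood at -0.08 (-0.29 to 0.13) and Elovl6 at -0.10 (-0.25 to 0.04). Acaca kept a negative value of -0.15 (-0.26 to -0.03, unadjusted p = 0.0182, adjusted p = 0.351). Marker level and genotype move together in these mice, so their parts in the differences cannot be told apart. In other lists no marker passed the adjusted threshold. Of the precursor markers 6 of 6 were negative (4 at an unadjusted p under 0.05, median -0.26). So were 8 of 8 microglia markers (6, median -0.21), beside 50.2% of all genes negative and 7.60% lower at that p. With none at an unadjusted p under 0.05, 5 of 8 astrocyte, 5 of 6 inhibitory neuron and 0 of 6 excitatory neuron markers were negative. Likewise without such a p, 8 of 8 choroid plexus (median -1.15), 3 of 5 ependyma and 1 of 6 endothelium markers were negative. The part of the precursor and microglia lists in the results was not tested.

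**Figure D4:**
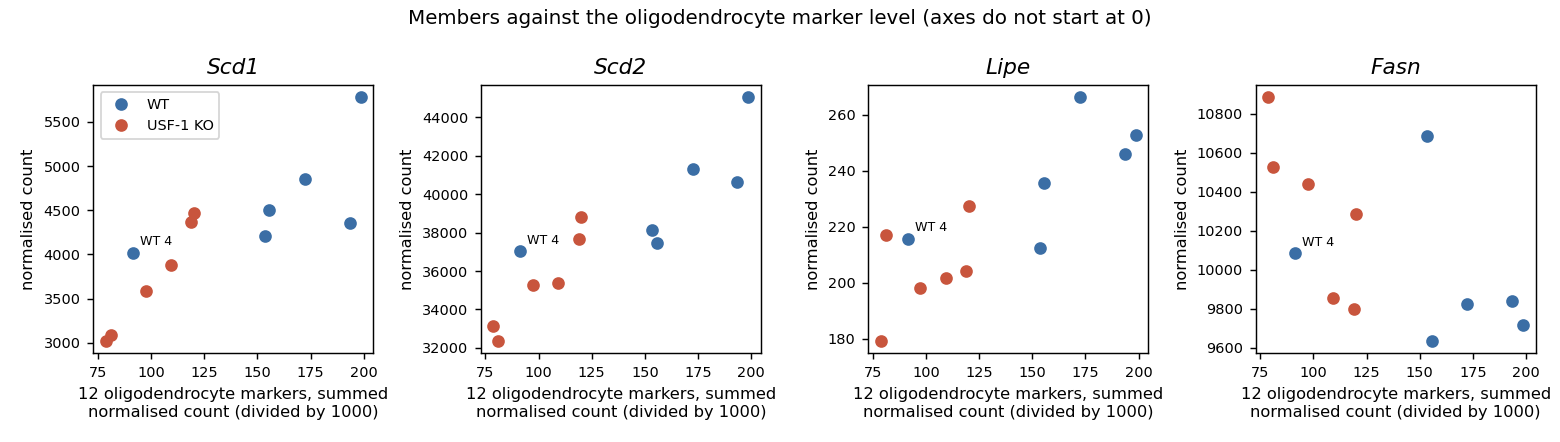
Normalised counts of Scd1, Scd2, Lipe and Fasn (vertical axes, not from 0) against the summed normalised count of 12 oligodendrocyte markers divided by 1000 (horizontal axes, not from 0), 1 point per mouse, WT blue and USF-1 KO red. Scd1, Scd2 and Lipe rise with the markers (r = 0.867, 0.897 and 0.803), Fasn has r = -0.628, and WT 4 lies among the USF-1 KO mice.

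The sexes were unequally spread over the genotypes, so the genotype difference was also set out within each. A genotype by sex interaction was called for 0 of 10 members (limma, 0 at an unadjusted p under 0.05, and 0 by edgeR in both respects), with 0 of 18221 genes called and 628 at an unadjusted p under 0.05. The lowest unadjusted p among the members was 0.0639 for Srebf1, whose USF-1 KO mean was 110% of WT in females and 82.9% in males. The male value rested on WT 5, which had 2189 normalised counts, and against the other WT male alone, WT 6, it was 91.6%. Elovl6 stood at 97.7% of WT in females and 88.3% in males, and Scd1 at 78.3% and 84.7%. Fasn was above WT in both sexes, at 103% and 106%. In each sex 1 of the genotypes had 2 mice, and the interval of the interaction for Srebf1 ran from -0.85 to 0.03 on the log2 scale.

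The wider pathway was read from 7 lists of 84 genes, of which 82 were tested. In all, 1 gene was called lower and 0 higher, which is 1.22% beside 0.900% of all genes. The called gene was Plin2, which encodes the coat protein perilipin 2 of lipid droplets. WT mice had 122 ± 14.99 normalised counts and USF-1 KO mice 73.9 ± 11.7 (SD, n = 6 each), and all 6 USF-1 KO mice were below every WT mouse. The log2 fold change was -0.72 (SE 0.11, limma adjusted p = 0.00867). With the oligodendrocyte covariate it was -0.69 with an adjusted p of 0.169, and without WT 1 and WT 5 -0.66 with an adjusted p of 0.0599. Over the 82 genes 62 had a negative value (75.6%, beside 50.2% of all genes tested). Of the 82, 18 were negative at an unadjusted p under 0.05, beside 7.60% of all genes, and 4 were positive at that level, beside 5.92%.

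In the list for SREBP-1 processing and transcriptional partners, 0 of 13 genes were called. It had 9 negative values, 3 positive ones at an unadjusted p under 0.05 and a median of -0.01. Srebf2, the sterol-regulated relative of Srebf1, had 5863 ± 279 normalised counts in WT and 6341 ± 196 in USF-1 KO mice (SD, n = 6), with an unadjusted p of 0.00943 and an adjusted p of 0.192. Scap, the escort that carries SREBPs to the Golgi, had 2894 ± 86.3 and 3067 ± 134 (adjusted p = 0.332). The Insig proteins hold that complex back, and Insig1 and Insig2 had log2 fold changes of -0.01 and -0.03. Mlxipl, which encodes the glucose-responsive factor ChREBP, was low at 107 normalised counts in WT and 103 in USF-1 KO mice, and its partner Mlx had the lowest value of the list, -0.07.

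In the list for acetyl-CoA, citrate and NADPH supply, 9 of 11 values were negative, 3 at an unadjusted p under 0.05, from Idh1, the cytosolic NADP-dependent isocitrate dehydrogenase, at -0.22 (adjusted p = 0.269) to the mitochondrial malic enzyme gene Me3 at 0.10. Mitochondrial fatty acid synthesis, which makes the precursor of lipoic acid, ranged over 4 genes from Oxsm at -0.09 to Cbr4 at 0.00. Elongation and desaturation had 14 of 16 negative values, 6 of them at an unadjusted p under 0.05, with a median of -0.15. Its lowest gene was Elovl7, an elongase of long saturated chains, at -0.79 (adjusted p = 0.180), with 517 ± 295 normalised counts in WT and 268 ± 26.3 in USF-1 KO mice. The highest of its values were those of the mice with choroid plexus transcripts, 656 for WT 1 and 1055 for WT 5, while the remaining WT mice had between 267 and 397. Without both mice its log2 fold change was -0.36 (adjusted p = 0.291). Its highest was Tecr, the last enzyme of the elongation cycle, at 0.00.

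Fatty acid activation and binding had 9 of 11 negative values, 2 at an unadjusted p under 0.05, and a median of -0.02. Its values ran from Fabp7, a fatty acid binding protein of glial precursors, at -0.31 (adjusted p = 0.317) to Fabp3 at 0.02. Glycerolipid synthesis had 8 of 13 negative, 2 at an unadjusted p under 0.05, and a median of -0.04. Its values ran from the phosphatidate phosphatase gene Lpin3 at -0.55 (adjusted p = 0.377) to Dgat2, which makes triglyceride, at 0.12. Lipolysis and lipid droplets had 10 of 14 negative, 5 at an unadjusted p under 0.05 and 1 positive at that level, from Plin2 to Pnpla3 at 0.29 (adjusted p = 0.137). Beside each list, 50.2% of all genes tested were negative and 7.60% were lower at an unadjusted p under 0.05. Apart from Plin2, no gene of these 7 lists passed the threshold with limma over all mice, whereas 8 further genes did with limma without WT 4 and 8 with DESeq2. With Plin2 this is 9 of the 82 in both cases, beside 2.83% of all genes without WT 4 and 3.54% with DESeq2.

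**Figure D5:**
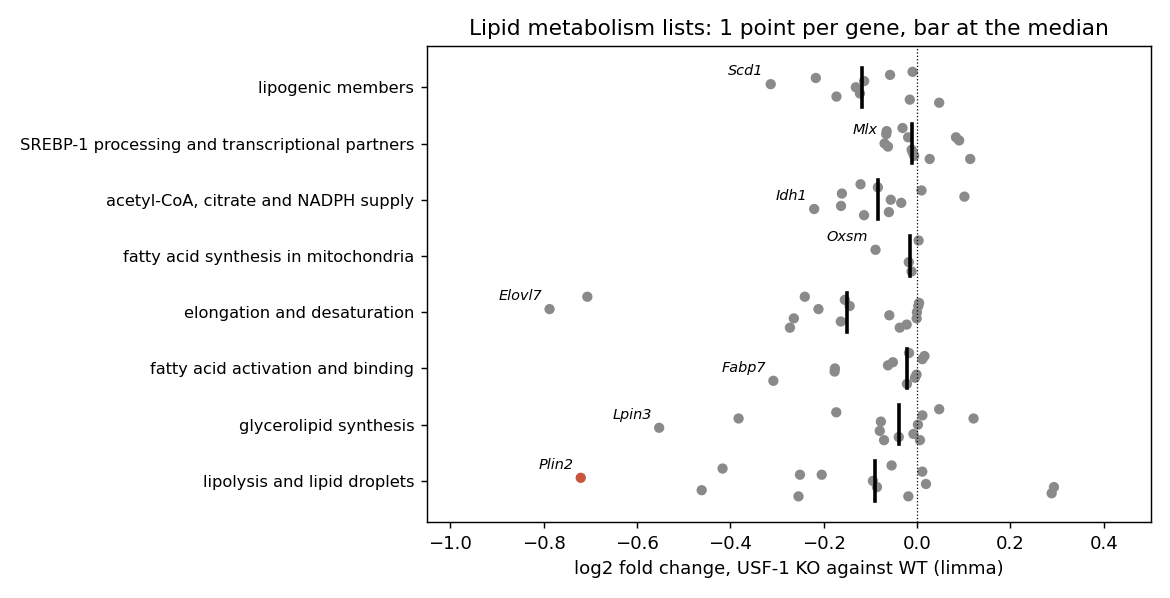
Log2 fold change in USF-1 KO against WT mice (horizontal axis) for the 10 lipogenic genes and 7 lists of related genes, 1 point per gene with a bar at the median of each list and the lowest gene named. Plin2, in red at -0.72, is the single gene past the threshold.

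The genes whose values followed each member most closely from mouse to mouse, after the mean of each genotype was taken away, were found among 12667 genes that averaged 100 normalised counts or more. These are descriptions over 12 mice that share their libraries. The highest of 12667 values over 12 mice can be large for unrelated genes too, and no test of these likenesses was run. Scd1 and Scd2 had Rassf2 as the closest gene (r = 0.954 and 0.966) and also shared Ankrd40 (0.936 and 0.946), with Edil3 (0.936) beside them for Scd1 and Pogk (0.927) for Scd2. Acacb was closest to Elovl7 (0.981), Hspg2 (0.965) and Pltp (0.960). The highest values of both Acacb and Elovl7 were those of WT 1 and WT 5, the mice with choroid plexus transcripts. Likeness without these mice was not computed. Fasn was closest to Dbn1 (0.946), Zfp319 (0.943) and Ripor1 (0.888), and Acaca to Cdh2 (0.932), Miga2 (0.867) and 4732440D04Rik (0.857).

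For Srebf1 the closest were Trmt11 (0.950), Sumf2 (0.911) and Rpl36a (0.910), for Acly Tln1 (0.919), Fam20c (0.887) and Zic1 (0.886), and for Me1 Clmn (0.898), Zfp626 (0.893) and Hdlbp (0.891). Elovl6 went with Ak6 (0.898), Tenm3 (0.881) and Htr1a (0.849), and Lipe with Praf2 (0.875), Tmub2 (0.870) and Pnoc (0.870). Among the members themselves Scd1 and Scd2 were the most alike, with r = 0.932, and Fasn and Scd1 ran opposite at -0.669. Acly and Scd1 had r = 0.709.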

How the data were processed

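Hippocampal RNA of 12 mice was sequenced after library preparation with the NEBNext Ultra II RNA kit. The deposited values, a signal per gene and library, are read counts that the authors divided by 1 size factor per library with DESeq2, after alignment with STAR in an RNA-Seq app of Illumina Basespace. The submitters' processing notes name STAR 2.5.0a, edgeR 3.22.2 and mm10, while the annotation, the counter and the use of strand are not given in the sources used here. Each of the 12 libraries had all of its values (100%) at whole multiples of 1 step, within 0.001 reads, and dividing by it gave whole reads. No library repeated another, as any 2 differed by a chi-square of at least 4.54 per degree of freedom.

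Groups and sexes were those of the sample labels. Members and lists were chosen with earlier results of these data known, the lists from general knowledge. Genes named are the members, Usf1, Usf2, 5 regulators, called genes and the lowest and highest gene of each list, and the 3 genes most like each member. Other genes named in the closing section were chosen after their values were seen, as were Ttr, Ugt8a and the overlapping genes. Genotypes were compared with limma 3.58.1 in R 4.3.3 with a mean-variance trend on log2(normalised count + 1), two-sided, for every gene averaging 10 normalised counts or more, with Benjamini-Hochberg adjustment over all genes tested and a threshold of 0.05. Single members were also compared with two-sided exact permutation tests over 924 assignments, whose smallest p is 0.00216. Alternatives used edgeR 4.0.16 and DESeq2 1.42.0 on the recovered reads, other pseudocounts, limits and scalings, covariates, and mice left out in turn. The steps were tested on simulated data. Exon lengths and shared stretches come from GENCODE M21, in which 55227 of the 55487 gene identifiers were found. Levels per kilobase are normalised counts divided by exon length. Member reads per library ranged from 87 to 56653. Python 3.11.15 with matplotlib 3.10.9 was used for the plots.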

Additional observations from a re-analysis of the deposited data

Results flagged for a closer look

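Each of 82 groups of 6 mice (41 genes or summed lists in both genotypes) was searched for a mouse far from the others, and 5 were found where chance gives about 1 in 20, or 4.1. No lipogenic gene was among them. Usf1 in WT 5 had 842 normalised counts, below the 1425 to 1583 of the other WT mice. Ttr in WT 5 had 149554, above 139 to 52017, and the summed choroid plexus markers in the same mouse had 164230, above 781 to 58052. Ttr is among the summed markers, so these flags are not independent and 5 cannot be weighed directly against 4.1. Plin2 in KO 6 had 95.8, above the 64.0 to 75.2 of the other USF-1 KO mice and below every WT mouse. Srebf2 in KO 4 had 6716, above 6179 to 6345.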

How the results depend on the processing

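No lipogenic gene was called under any of the 27 alternatives run, and the lowest adjusted p of a member in any of them was 0.0940, for Scd2 with DESeq2. Of 260 member values under the alternatives 234 kept their sign and 26 turned it, all without a call at any setting. With the oligodendrocyte marker level as a covariate the log2 fold change was -0.0076 for Fasn, 0.32 for Acacb, 0.044 for Acly and 0.16 for Srebf1. Chosen after the data were seen were leaving out WT 1 and WT 5 (Acacb 0.30, Acly 0.013, Srebf1 0.092), the choroid plexus marker level as a covariate (Acacb 0.16, Acly 0.0076, Srebf1 0.057) and both marker levels as covariates (Fasn -0.0099, Acacb 0.38, Acly 0.047, Scd1 0.0047, Srebf1 0.18). With sex as a covariate Acly stood at 0.0032. Leaving out 1 mouse at a time, the values ran from -0.29 to 0.12 for Acacb, positive without WT 5, from -0.027 to 0.0088 for Acly, and from -0.081 to 0.061 for Srebf1. The count of called genes in the 7 lists was more sensitive than that of the members. It was 1, and became 9 with DESeq2, 7 at a threshold of 0.1, and 0 with the oligodendrocyte covariate, with both covariates and without WT 1 and WT 5. Leaving out 1 mouse at a time gave 1 to 9, with 9 without WT 4, 3 without KO 1 or KO 6 and 2 without WT 5, and the cause was not tested. The share of all genes called moved too, from 0.900% to 3.54% with DESeq2, 2.83% without WT 4, 0.104% with the oligodendrocyte covariate and 0.325% without WT 1 and WT 5. Under DESeq2 these were Plin2, Plin3, Scd3, Elovl5, Agpat4, Pnpla2, Elovl1, Hsd17b12 and Lipa, all lower in USF-1 KO mice. No paired analysis was possible because the mouse numbers were given in deposition order within each genotype and pair no mice. Each member had 87 reads or more in each library. Over all mice, p-values of genotype comparisons rest on 6 mice per genotype, and limma, edgeR and DESeq2 also borrow spread from other genes. Those of the marker relations rest on 12 mice, or on 6 within a genotype.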
